A study of Drosophila montana with 12 samples.

Results

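Expression of the yolk protein genes *Yp2* and *Yp3* was followed through 4 of the 31233 contigs assembled from *D. montana* females. Contig_8009 and contig_633 are the contigs that the study paired with *Yp2* and *Yp3*. Their best blast hits are FBgn0206566 and XP_002055336, and each hit was shared with 1 other contig, contig_4785 for *Yp2* and contig_4949 for *Yp3*. Hits were compared as written, so a contig whose hit names one of these genes in another way would be missed. The 4 contigs were taken because they carry these 2 hits, although the study had listed contig_8009 and contig_633 among contigs DE (differentially expressed) by day length in diapausing females. The count tables do not say whether 2 contigs with one hit are pieces of one transcript, alleles, or copies of the gene, and reads mapping to more than 1 contig were not counted. The contigs are therefore described one by one, and the split of reads between contigs of one hit is uncertain. *Yp1* was not matched to a contig and is not analysed here.

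Yolk proteins feed the embryo. In *D. melanogaster* they are made in the female fat body and in the follicle cells around the oocyte, secreted, and taken up by the growing oocyte through a yolk protein receptor, under control of ecdysteroids and juvenile hormone. In reproductive diapause, the adult overwintering state of *D. montana* females that is induced by short days, the ovaries stop before yolk is laid down.

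RNA-seq counts were obtained from 12 libraries, each of polyA RNA from 10 pooled whole females aged 21 d, with 3 libraries in each of 4 groups. At 16 h light and 8 h dark (LD 16:8) the females were diapausing, at the critical day length (CDL) diapausing and nondiapausing females formed a group each, and at 22 h light and 2 h dark (LD 22:2) the females were nondiapausing. All libraries at LD 16:8 and LD 22:2 came from isofemale line 175OJ8, while both CDL groups contained a single library per line, of 175OJ8, 265OJ8, and 3OL8. All 3 lines descend from wild-caught females of one Finnish population and were kept in continuous light before the females were placed at these light cycles. The CDL had a dark phase of 5.5 h, which leaves 18.5 h of light in a day, the light phase in the methods, whereas the labels have 17.5 h. Diapause state was judged by dissection. Small transparent ovaries without yolk counted as diapausing, ovaries with visible eggs as nondiapausing, and females with intermediate ovaries were left out, so the yolk content of the ovary itself defined the 2 states. Diapause state was thus compared within one light cycle only at the CDL. Elsewhere state and light cycle cannot be told apart, and a line other than 175OJ8 was seen only at the CDL.

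The totals per library ran from 2986505 to 6637623 counts, the lowest being that of nondiapausing line 3OL8 at the CDL. Values are given as normalized counts, that is CPM, counts scaled to a common library size with TMM factors. These factors ran from 0.837 to 0.921 in diapausing libraries and from 1.09 to 1.15 in nondiapausing libraries. Lengths of the contigs were not used here, so levels of different contigs are not compared with each other. The 4 contigs had between 108 and 10338 counts in each library, and all 4 passed a filter on low counts. The biological coefficient of variation of the 4 contigs ran from 0.259 to 0.295 (0.237 for all contigs in common), which exceeds the counting error of such counts. Whole females were sampled, so less yolk protein RNA per cell and fewer cells that make it cannot be told apart. Ovary and egg markers were not paired with contigs and are not analysed here.

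All 4 contigs were expressed at a lower level in every diapausing library than in every nondiapausing library. *Yp2* contig_8009 had 23.5, 29.7, and 37.9 CPM in diapausing females at LD 16:8. It had 124, 56.9, and 79.3 CPM in diapausing females of lines 175OJ8, 265OJ8, and 3OL8 at the CDL, against 453, 442, and 388 CPM in nondiapausing females of the same lines. Nondiapausing females at LD 22:2 had 258, 366, and 389 CPM. The highest diapausing library of contig_8009 was that of line 175OJ8 at the CDL, and it lay below the lowest nondiapausing library, LD 22:2 replicate 1. Contig_4785, the other contig with the *Yp2* hit, spanned a narrower range. Diapausing females had 195, 211, and 144 CPM at LD 16:8 and 243, 253, and 230 CPM at the CDL. Nondiapausing females had 784, 804, and 566 CPM at the CDL and 542, 672, and 706 CPM at LD 22:2. The 6 diapausing libraries of contig_4785 thus lay close together, below all nondiapausing ones.

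*Yp3* contig_633 had 102, 123, and 125 CPM in diapausing females at LD 16:8. At the CDL it had 493, 299, and 206 CPM in diapausing females of lines 175OJ8, 265OJ8, and 3OL8, against 1493, 1033, and 931 CPM in nondiapausing females of these lines. It had 848, 985, and 1233 CPM in nondiapausing females at LD 22:2. As for contig_8009, line 175OJ8 gave the highest of the diapausing libraries. Contig_4949, the other contig with the *Yp3* hit, had 161, 158, and 173 CPM in diapausing females at LD 16:8 and 442, 299, and 240 CPM in diapausing females at the CDL. Nondiapausing females had 1540, 1221, and 1143 CPM at the CDL and 1116, 1269, and 1394 CPM at LD 22:2. Both *Yp3* contigs had the same order of lines at the CDL in each state, 175OJ8 above 265OJ8 above 3OL8.

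**Figure D1:**
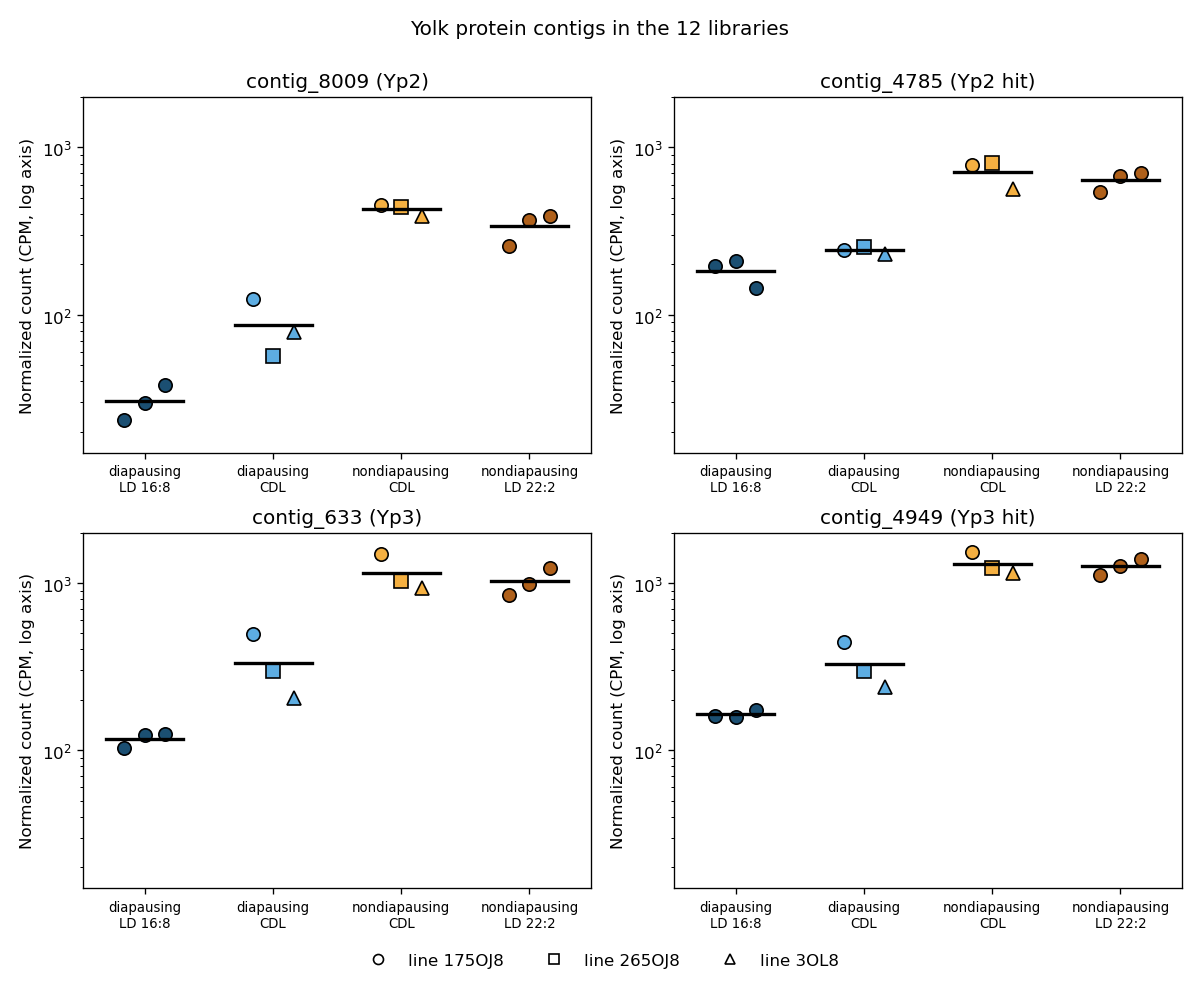
Normalized counts (CPM, log axis) of the 4 yolk protein contigs in the 12 libraries, by group. Points are libraries, with the symbol giving the isofemale line, and bars are group means of 3 libraries. In each panel all 6 diapausing points lie below all 6 nondiapausing points, and all LD 16:8 points lie below all diapausing CDL points, with the narrowest gap for contig_4785 (211 against 230 CPM).

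The order of group means was the same for all 4 contigs, with the LD 16:8 diapausing group lowest, then the diapausing CDL group, the LD 22:2 nondiapausing group, and the nondiapausing CDL group. Contig_8009 averaged 30.4 ± 7.25 CPM in the LD 16:8 diapausing, 86.9 ± 34.4 CPM in the CDL diapausing, 428 ± 34.9 CPM in the CDL nondiapausing, and 338 ± 70.2 CPM in the LD 22:2 nondiapausing group (SD, n = 3 each). The means of contig_4785 in these 4 groups, in the same order, were 183 ± 34.7, 242 ± 11.4, 718 ± 132, and 640 ± 86.9 CPM. Those of contig_633 were 117 ± 12.7, 333 ± 147, 1153 ± 299, and 1022 ± 195 CPM, and those of contig_4949 were 164 ± 8.07, 327 ± 104, 1301 ± 210, and 1260 ± 139 CPM. The 2 nondiapausing groups overlapped for each contig and stood next to each other in this order. The 2 diapausing groups did not overlap for any of the 4 contigs, and 6.35% of all contigs were lower at LD 16:8 than at the CDL in diapausing females without overlap.

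The summed counts of the 4 contigs put this on the scale of the whole library. They took 0.0428% (95% Wilson interval 0.0411 to 0.0446), 0.0436% (0.0420 to 0.0454), and 0.0443% (0.0425 to 0.0461) of all counts in diapausing females at LD 16:8. In diapausing females of lines 175OJ8, 265OJ8, and 3OL8 at the CDL the share was 0.117% (0.114 to 0.120), 0.0819% (0.0795 to 0.0843), and 0.0667% (0.0644 to 0.0691). It was 0.491% (0.486 to 0.497), 0.398% (0.393 to 0.403), and 0.342% (0.335 to 0.348) in nondiapausing females of these lines, and 0.315% (0.310 to 0.319), 0.367% (0.362 to 0.373), and 0.406% (0.401 to 0.411) in nondiapausing females at LD 22:2. The 3 libraries at LD 16:8 had shares within each other's intervals, whereas in the other groups the intervals of the 3 libraries were apart. The intervals cover counting error only. On the normalized scale the sum was 495 ± 23.3, 989 ± 283, 3600 ± 627, and 3259 ± 481 CPM in the 4 groups (SD, n = 3 each), so that diapausing females at the CDL had 27.5% of the level of nondiapausing females at the CDL.

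**Figure D2:**
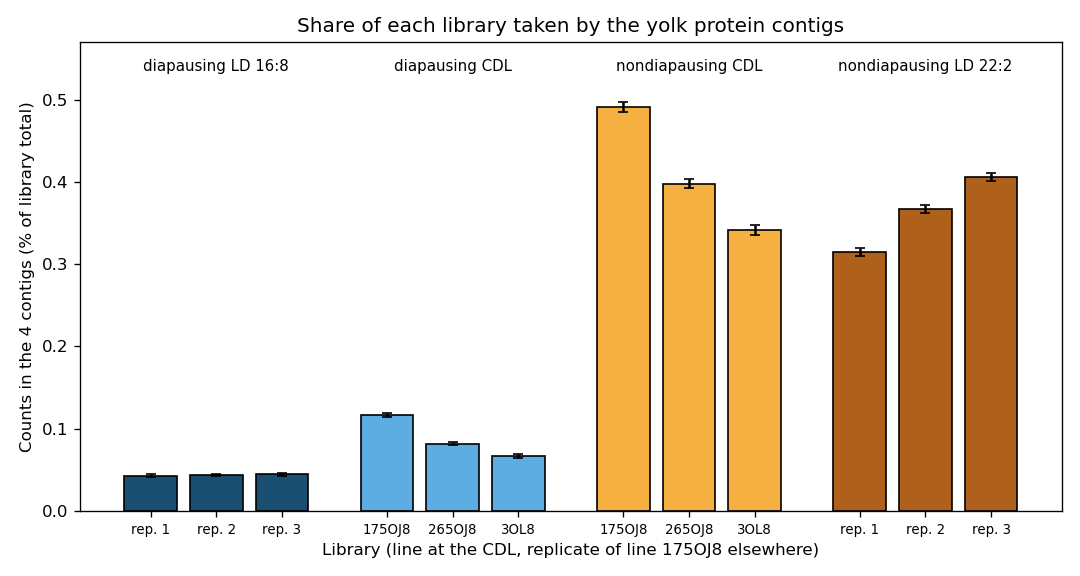
Percentage of each library's counts that fell in the 4 yolk protein contigs together. Bars are libraries, named by line at the CDL and by replicate elsewhere, and error bars are 95% Wilson intervals for counting error. Diapausing libraries hold 0.0428 to 0.117% and nondiapausing libraries 0.315 to 0.491%.

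The first question was whether yolk protein genes differ between diapausing and nondiapausing females that shared the same light cycle. At the CDL all 4 contigs were DE and lower in diapausing females (FDR under 0.05, edgeR likelihood ratio test). So were 49.5% of all contigs, 25.7% being higher and 23.7% lower in diapausing females, so that a call in this direction was common in general. Groups that did not overlap, with diapausing females lower, were found for 27.7% of all contigs. The log2 fold change of contig_8009 was -2.30 (standard error 0.349, FDR 6.11e-09), diapausing females having 20.3% of the nondiapausing mean. For contig_4785 it was -1.57 (standard error 0.307, FDR 4.87e-06) and 33.7% of the nondiapausing mean. The *Yp3* contigs had log2 fold changes of -1.79 (contig_633, standard error 0.348, FDR 4.80e-06) and -1.99 (contig_4949, standard error 0.308, FDR 7.96e-09), at 28.9% and 25.1% of the nondiapausing means. A lower log2 fold change than that of the contig was found for 1.58% of all contigs for contig_8009, 2.77% for contig_4949, 3.97% for contig_633, and 5.96% for contig_4785, and the median of all contigs was 0.08. In the quasi-likelihood test, which called 23.4% of all contigs lower, the 4 contigs were also DE, with FDR values of 5.23e-06 to 1.01e-04.

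Within each line the diapausing library was lower than the nondiapausing library for all 4 contigs. The log2 ratio of diapausing to nondiapausing CPM of contig_8009 was -1.87 in line 175OJ8, -2.96 in line 265OJ8, and -2.29 in line 3OL8. Line 265OJ8 had the largest difference for contig_8009, with the lowest of the 3 diapausing libraries and a nondiapausing library close to that of line 175OJ8. The *Yp3* contigs had another order of lines. The log2 ratio of contig_633 was -1.60, -1.79, and -2.18, and that of contig_4949 was -1.80, -2.03, and -2.25 in lines 175OJ8, 265OJ8, and 3OL8. For contig_4785 the log2 ratios were -1.69, -1.67, and -1.30 in these lines, line 3OL8 having the smallest difference. With 1 library for each line and state these differences between lines have no replicate check. With the replicate block, which here is the line, the log2 fold changes were -2.37, -1.55, -1.85, and -2.03 for contig_8009, contig_4785, contig_633, and contig_4949.

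**Figure D3:**
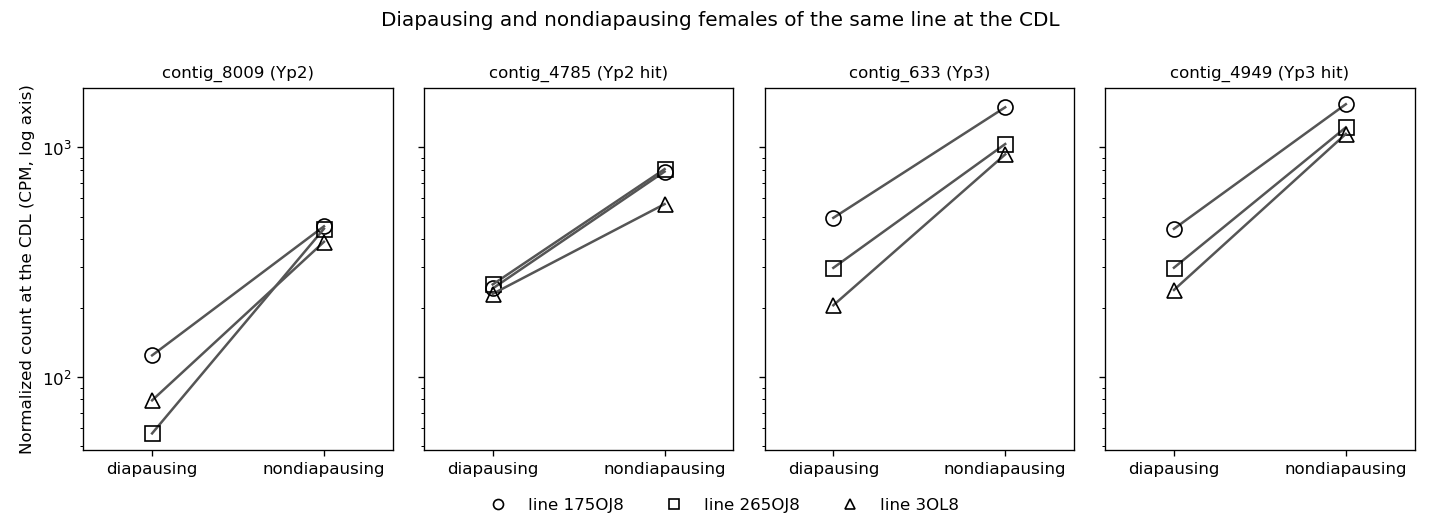
Normalized counts (CPM, log axis) at the CDL of the 4 contigs in diapausing females (left in each panel) and nondiapausing females (right), with a line joining the 2 libraries of one isofemale line. All 12 joined pairs are lower in diapausing females, and the widest pair is that of contig_8009 in line 265OJ8 (56.9 against 442 CPM).

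The difference by state was wider between the 2 ends of the light series, where state and light cycle changed together in line 175OJ8. Diapausing females at LD 16:8 had 8.99% of the level of nondiapausing females at LD 22:2 for contig_8009, 28.7% for contig_4785, 11.5% for contig_633, and 13.0% for contig_4949. The log2 fold changes were -3.47 (standard error 0.354), -1.80 (0.307), -3.13 (0.350), and -2.94 (0.308), with FDR values of 2.87e-17, 1.46e-07, 1.05e-14, and 7.46e-17. All 4 were DE, as were, in the same direction, 24.8% of all contigs, and 28.7% of all contigs were lower without overlap. Only 0.295% of all contigs had a lower log2 fold change than contig_8009 in this comparison, against 4.11% for contig_4785. Averaged over the light cycles of each state, the log2 fold changes were -2.89, -1.68, -2.46, and -2.47 for contig_8009, contig_4785, contig_633, and contig_4949, all 4 DE and lower, as were 31% of all contigs. In an exact permutation test of the mean log2(CPM + 1) of 6 diapausing against 6 nondiapausing libraries, each contig had a two-sided *P* of 0.00216, the smallest that this design can give. Lack of overlap of the 6 and 6 libraries, with diapausing females lower, held for 20% of all contigs.

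The second question was whether day length changed yolk protein expression within a diapause state. The study listed contig_8009 and contig_633 because they were DE between the light cycles in diapausing females, so their result here is not independent evidence. Contig_4785 and contig_4949 were not so listed. In diapausing females, contig_8009 at LD 16:8 had 34.9% of its level at the CDL (log2 fold change -1.52, standard error 0.356, FDR 0.0110). For contig_633 this was 35.2% (log2 fold change -1.51, standard error 0.350, FDR 0.0104). These 2 of the 4 contigs were DE and lower at LD 16:8, as were 0.189% of all contigs. Contig_4949 had 50.1% of its CDL level (log2 fold change -0.997, standard error 0.309) and contig_4785 had 75.7% (log2 fold change -0.40, standard error 0.308), and neither was DE (FDR 0.152 and 0.873).

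The call for day length in diapausing females depended on the test and on single libraries. With the quasi-likelihood test the FDR was 0.108 for contig_8009 and 0.108 for contig_633, a test that called 0% of all contigs lower and 2 contigs higher at LD 16:8, with 2425 contigs at an unadjusted *P* under 0.05. Contig_8009 was not DE when the line 175OJ8 diapausing library from the CDL was left out (log2 fold change -1.16, FDR 0.170), without LD 16:8 replicate 1 (-1.36, FDR 0.183), or without LD 16:8 replicate 2 (-1.50, FDR 0.132). Contig_633 was not DE without the same libraries (log2 fold changes -1.11, -1.42, and -1.55, FDR 0.209, 0.154, and 0.111). The LD 16:8 libraries are all of line 175OJ8 and the CDL libraries are of 3 lines. Within line 175OJ8 alone, where the CDL library gave the highest diapausing level of contig_8009, contig_633, and contig_4949, the log2 fold change was -2.03, -2.07, and -1.43 for these contigs and -0.41 for contig_4785. When line was added to the GLM as a term the log2 fold changes were -1.80 for contig_8009 (FDR 6.88e-04), -1.95 for contig_633 (FDR 1.03e-06), and -1.32 for contig_4949 (FDR 0.00180), all 3 DE, as were 0.269% of all contigs in this direction. Contig_4785 was not DE with the line term (log2 fold change -0.48, FDR 0.754).

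In nondiapausing females no yolk protein contig was DE between the CDL and LD 22:2, where 0.224% of all contigs were DE in either direction. The log2 fold change was 0.34 for contig_8009 (standard error 0.347), and contig_4785 had one of 0.17 (0.306), contig_633 of 0.17 (0.348), and contig_4949 of 0.05 (0.307). The FDR was 0.9997 for each in the likelihood ratio test and 0.985 to 0.998 in the quasi-likelihood test. With line as a term the log2 fold changes were 0.69 for contig_8009, 0.23 for contig_4785, 0.68 for contig_633, and 0.41 for contig_4949, and none was DE (FDR 0.665 to 0.987, and 0.506 to 0.932 in the quasi-likelihood test). With this term contig_633 had an unadjusted *P* of 0.0311 (edgeR likelihood ratio test), or 0.00961 by quasi-likelihood. As single libraries were left out, contig_633 had -0.04 without the nondiapausing line 175OJ8 library from the CDL and 0.37 without LD 22:2 replicate 3, and contig_4949 had -0.08 without that line 175OJ8 library, so no direction is given for the *Yp3* contigs. With 3 libraries against 3 and adjustment over all contigs, changes well above these standard errors could also be missed. In diapausing females, contig_4949 was not DE at -0.997 with a standard error of 0.309 (FDR 0.152, likelihood ratio test).

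**Figure D4:**
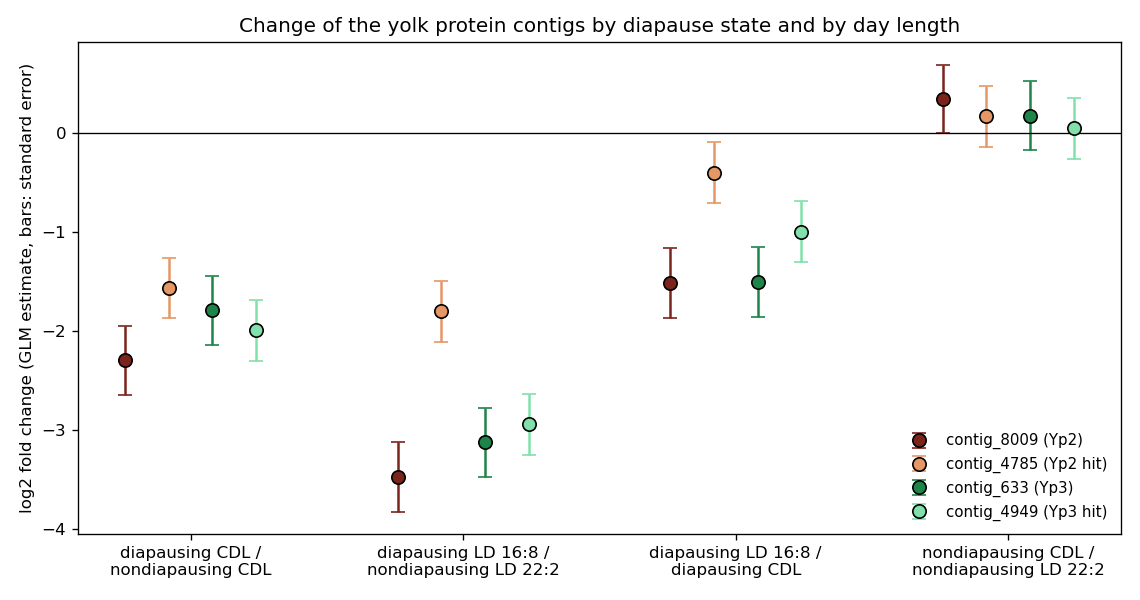
Log2 fold changes of the 4 contigs from the GLM, with standard errors as bars, for the 2 comparisons of diapausing with nondiapausing females and the 2 comparisons of day length. Values by state run from -3.47 to -1.57, values by day length in diapausing females from -1.52 to -0.40, and values by day length in nondiapausing females from 0.05 to 0.34.

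The interaction of diapause state and light cycle compared the 2 day length differences directly. For contig_8009 the interaction on the log2 scale was -1.86 (standard error 0.497, FDR 0.0281) in the likelihood ratio test, and it was the 1 of 4 contigs that was DE, as were 0.365% of all contigs in this direction. In the quasi-likelihood test, which called 0.0288% of all contigs in this direction, its FDR was 0.0708. Contig_633 had a value of -1.68 (standard error 0.494, FDR 0.0597), contig_4949 of -1.04 (standard error 0.436, FDR 0.334), and contig_4785 of -0.57 (standard error 0.434, FDR 0.740). The line term in the GLM moved these to -2.50 for contig_8009 (FDR 0.00509), -2.63 for contig_633 (FDR 7.58e-05), and -1.73 for contig_4949 (FDR 0.0226), all 3 DE, as were 0.218% of all contigs in this direction. Contig_4785 stayed at -0.70 (FDR 0.738).

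Isofemale lines could be compared only at the CDL, where 1.85% of all contigs were DE by line. None of the 4 yolk protein contigs was among them. The lowest FDR was that of contig_633 at 0.206 (unadjusted *P* = 0.00745, likelihood ratio test of both line terms), with log2 fold changes of -0.63 for line 265OJ8 (standard error 0.316) and -0.97 for line 3OL8 (standard error 0.317) relative to line 175OJ8. Contig_4949 had values of -0.45 and -0.65 (FDR 0.621), contig_8009 of -0.57 and -0.46 (FDR 0.898), and contig_4785 of 0.05 and -0.27 (FDR 0.985). Single libraries moved the values of contig_8009 widely. For line 265OJ8 it had -0.14 without the diapausing and -1.04 without the nondiapausing library of line 265OJ8, and for line 3OL8 -0.05 without the diapausing and -0.78 without the nondiapausing library of line 175OJ8. In DESeq2 contig_633 was DE by line, with an adjusted *P* of 0.0119.

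Ratios of 2 contigs within a library do not depend on library size or on the scaling between states. They were compared between groups only, since contig lengths are not known here. The count of contig_8009 relative to contig_633 (*Yp2* to *Yp3*) was 0.229, 0.240, and 0.302 in diapausing females at LD 16:8 and 0.252, 0.190, and 0.386 in diapausing females of lines 175OJ8, 265OJ8, and 3OL8 at the CDL. It was 0.304, 0.428, and 0.417 in nondiapausing females of these lines and 0.304, 0.372, and 0.316 in nondiapausing females at LD 22:2. The 2 states overlapped through the diapausing library of line 3OL8. The mean log2 ratio was -1.94 in diapausing and -1.50 in nondiapausing libraries (difference -0.44, exact permutation test, two-sided *P* = 0.0325, 0.173 after Benjamini and Hochberg adjustment over 16 comparisons of ratios), which does not pass the adjustment. At the CDL alone the difference was -0.51, with overlap (exact permutation *P* = 0.2, adjusted *P* = 0.32). By day length the ratio had *P* values of 0.8 in diapausing females and 0.4 in nondiapausing females in the exact permutation test, in which 3 libraries against 3 cannot go below 0.1.

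The other ratios were chosen after the values of the contigs were seen and are given as a description, with no test. The ratio of contig_8009 to contig_4785, the 2 contigs of the *Yp2* hit, was 0.120, 0.141, and 0.263 in diapausing females at LD 16:8 and 0.512, 0.225, and 0.344 in diapausing females at the CDL. In nondiapausing females it was 0.578, 0.550, and 0.685 at the CDL and 0.476, 0.545, and 0.551 at LD 22:2. The diapausing library of line 175OJ8 at the CDL was the only diapausing library within the range of the nondiapausing ones. The mean log2 ratio was -2.08 in diapausing and -0.83 in nondiapausing libraries, a difference of -1.24, and at the CDL alone the difference was -0.82. For the 2 contigs of the *Yp3* hit, contig_633 and contig_4949, the mean log2 ratio was -0.26 in diapausing and -0.25 in nondiapausing libraries. It did not overlap between the light cycles in diapausing females, with ratios of 0.636, 0.783, and 0.725 at LD 16:8 against 1.12, 0.999, and 0.858 at the CDL. The ratio of contig_4785 to contig_4949 averaged 0.957 ± 0.284 in diapausing and 0.531 ± 0.0644 in nondiapausing libraries (SD, n = 6 each). The difference of its mean log2 ratio was 0.80 over all libraries and 0.48 at the CDL alone, where the states overlapped. These differences had the opposite sign to the -0.44 and -0.51 of the ratio of contig_8009 to contig_633, which did not pass the adjustment.

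**Figure D5:**
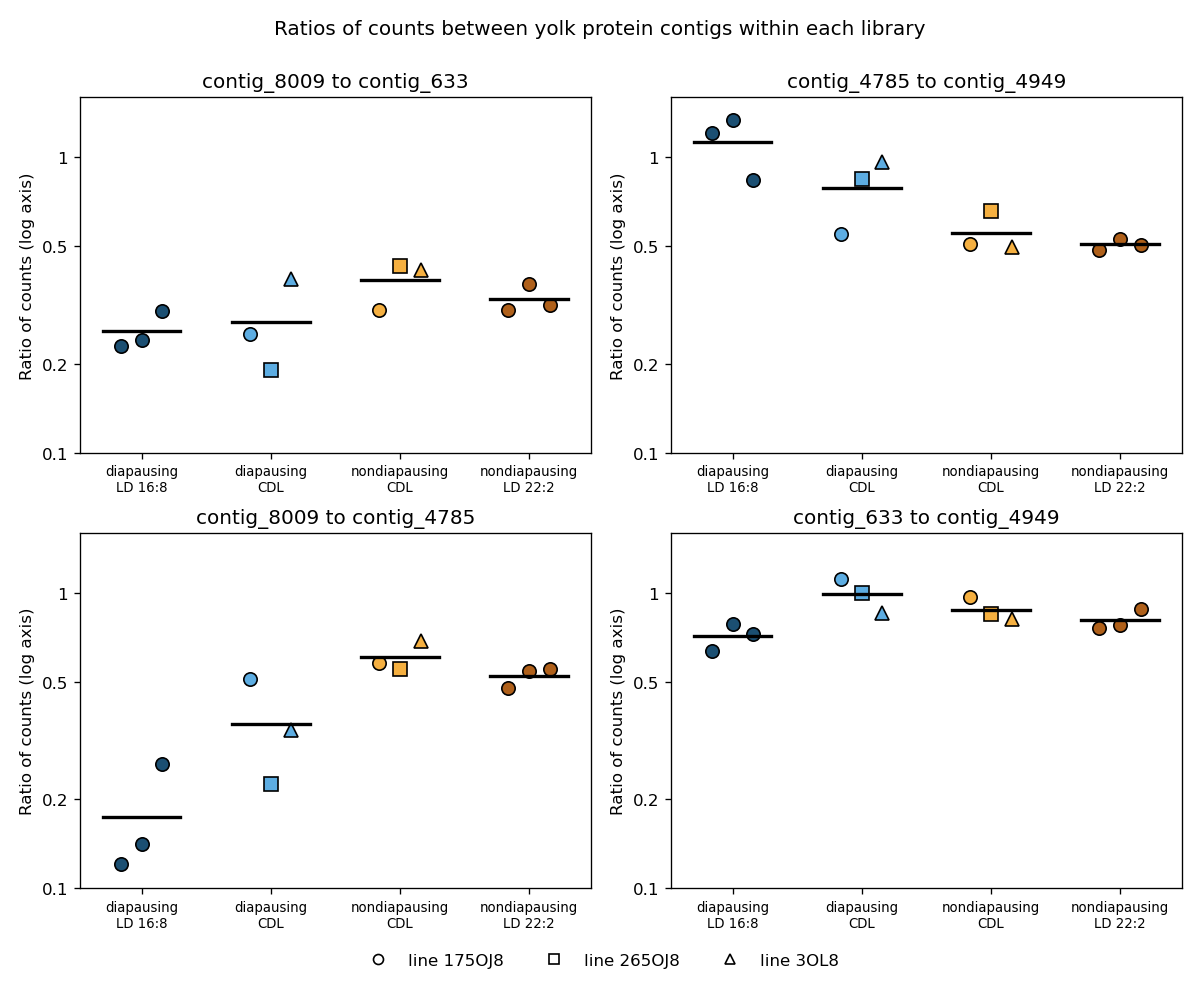
Ratios of the counts of 2 contigs within each library (log axis), by group, with the symbol giving the isofemale line and bars the mean of 3 libraries. The ratio of contig_8009 to contig_4785 has its lowest group mean at LD 16:8 (0.120 to 0.263), with overlap with the diapausing CDL group (0.225 to 0.512). The ratio of contig_633 to contig_4949 has no difference by state in its mean log2 value (-0.26 against -0.25).

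Across the 6 nondiapausing libraries, contig_633 and contig_4949 varied together (Pearson's *r* = 0.978, exact permutation *P* = 0.00278, Spearman's rho = 0.943, exact permutation *P* = 0.0167). This was 1 of 12 such relations, with an adjusted *P* of 0.025 for *r*, and *r* was 0.830 without the 2 libraries farthest from the median. Contig_8009 and contig_4785 had *r* = 0.815 (exact permutation *P* = 0.0139, adjusted *P* = 0.0333, rho = 0.886 with exact *P* = 0.0333, *r* = 0.651 without the 2 farthest libraries). Contig_8009 and contig_633 had *r* = 0.702 (exact permutation *P* = 0.114, adjusted *P* = 0.156) and rho = 0.886 (exact *P* = 0.0333). This relation rests on the 2 farthest libraries, since *r* was 0.098 without them. Each light cycle holds 3 of these libraries, too few for a value within it. The 6 diapausing libraries formed 2 separate sets by light cycle for all 4 contigs, so no correlation is given over them.

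The contigs most like the yolk protein contigs in expression were sought over all 12 libraries by Pearson's *r* of log2(CPM + 1) among 30473 other contigs. For contig_8009 they were contig_10191 (*r* = 0.996), contig_12977 (0.992), contig_16785 (0.991), contig_939 (0.990), and contig_21914 (0.988), of which the first 3 have no blast hit. Contig_10191 averaged 86.7 CPM in diapausing and 535 CPM in nondiapausing females. For contig_633 they were contig_22593 (*r* = 0.993), contig_5248 (0.992), contig_12977 (0.989), contig_18704 (0.987), and contig_26675 (0.985). Contig_22593 and contig_18704 share the hit XM_002055300. Whether it names the same gene as the hit of contig_633 was not tested, so they may not be separate genes from *Yp3*. All of these values share the split of the 12 libraries between the states, and *r* exceeded 0.9 for 6.80% of contigs with contig_8009 and for 4.86% with contig_633. Among the yolk protein contigs themselves, contig_4949 was the contig ranked 3 for likeness to contig_633 (*r* = 0.989), whereas contig_4785 ranked only 436 for contig_8009 (*r* = 0.947).

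For comparison, the other genes that the study annotated to reproduction and those tied to storage proteins and lipid or carbohydrate metabolism were counted in the same fits. The study chose both lists from contigs DE by day length in these libraries, so their counts by day length are not independent evidence. At the CDL, 5 of the 18 reproduction genes were higher and 2 lower in diapausing females, where 25.7% of all contigs were higher and 23.7% lower, and the median log2 fold change was -0.16 against 0.08 for all contigs. The higher ones included *Mdr49*, a membrane transporter, with a log2 fold change of 1.55 (FDR 9.61e-08) and *fz2*, a Wnt receptor, with 2.29 (FDR 7.46e-07). Among the higher ones *para* and *mbl*, and both of the 2 lower ones, *wb* and *MCPH1*, had SDs above their means in the higher group (for *wb* 163 ± 273 CPM, n = 3, in nondiapausing females at the CDL).

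Of the 5 storage and metabolism genes, 3 were higher and 0 lower in diapausing females at the CDL (median log2 fold change 1.26), in both edgeR tests, against 25.7% of all contigs higher and 23.7% lower in the likelihood ratio test. The gene *ifc*, which the study also named for lipid metabolism, was counted with the reproduction genes instead. At the CDL it averaged 70.9 ± 12.5 CPM in diapausing and 97.3 ± 10.7 CPM in nondiapausing females (SD, n = 3 each). It was not DE there (log2 fold change -0.46, standard error 0.907, FDR 0.700, likelihood ratio test). This standard error rests on a dispersion shared by all 4 groups, and *ifc* had 1504 ± 2504 CPM at LD 16:8. Its 2 CDL groups did not overlap, with diapausing females lower, as for 27.7% of all contigs. *Acetyl-CoA carboxylase*, the first enzyme of fatty acid synthesis, averaged 49.9 ± 12.8 CPM in diapausing and 9.92 ± 1.65 CPM in nondiapausing females at the CDL. The larval serum storage protein gene *Lsp2* averaged 4382 ± 1672 CPM in diapausing and 711 ± 507 CPM in nondiapausing females at the CDL, the opposite direction to the yolk protein contigs (SD, n = 3 each). In diapausing females, 4 reproduction genes were higher and 9 lower at LD 16:8 than at the CDL, and 2 storage genes were higher, against 0.215% of all contigs higher and 0.189% lower. The lower ones included *Gprk2*, a G protein-coupled receptor kinase, at 12.1 ± 0.777 CPM at LD 16:8 against 23.3 ± 0.542 CPM at the CDL (SD, n = 3 each, log2 fold change -0.94, FDR 0.00607). In the quasi-likelihood test, which called only 2 of all 31233 contigs, 0 of the 18 reproduction genes and 1 of the 5 storage genes were DE in this comparison. This storage gene was *CG16904*, at 23.9 ± 1.99 CPM at LD 16:8 against 5.68 ± 1.29 CPM at the CDL (SD, n = 3 each, log2 fold change 2.07, quasi-likelihood FDR 0.0177). In nondiapausing females 5 of the 18 reproduction genes were DE between the CDL and LD 22:2, where 0.224% of all contigs were DE in either direction. Among these genes, *MCPH1*, *wb*, and *asun* had SDs above their means in the higher group (for *asun* 872 ± 1499 CPM, n = 3, at LD 22:2). Of the 5 storage genes, 3 were higher at the CDL, as were 0.08% of all contigs. The quasi-likelihood test called 0 genes of either list here. It called only 1 of all 31233 contigs in this comparison (1724 contigs at an unadjusted *P* under 0.05), so this count does not set the lists apart.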

How the data were processed

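The authors trimmed and error-corrected paired SOLiD reads from each pool, aligned these in CLC Genomics Workbench to contigs assembled *de novo*, and counted the reads mapping uniquely to each contig with HTSeq, and the counts were deposited per library without normalization. Each library had 2986505 to 6637623 counts. No genome was used, 0 of 15189 hits matched the 15263 genes of a RefSeq table, and no sequences are shown. The 4 contigs, the gene lists, and the tests were chosen with earlier results of these data known.

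All 31233 contigs were tested without a filter in edgeR 4.0.16 (R 4.3.3), as in the study: TMM, Cox-Reid dispersions, a GLM over 4 groups, likelihood ratio tests, and Benjamini and Hochberg FDR under 0.05 over all contigs. The quasi-likelihood test, which allows for uncertainty of the dispersion, is given where it changes a call. Fold changes used a prior count of 0.125. Replicates are separate pools, and nothing says that they came from separate cultures, so *P* values measure the spread between these pools. Single values and the ratio of contig_8009 to contig_633 (counts + 0.5) had exact permutation tests, two-sided (scipy 1.17.1). Genes named from the 2 lists were those past the threshold, at most 4 in each direction and list by lowest FDR, and for likeness the 5 contigs with the highest *r* among those with a mean of at least 1 CPM.

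Alternatives were the quasi-likelihood test, DESeq2 1.42.0, RLE scaling, library size alone, filterByExpr with a minimum count of 10, the compared groups only, a line term, a replicate block, line 175OJ8 alone, a pseudocount of 2, and each library left out. The block with the quasi-likelihood test, line 175OJ8 alone for state at the CDL, and 3 of the 4 ratios, which are given with no test, were added after seeing the data. Replicate names at the CDL are the isofemale lines, so they pair its libraries. After group means were removed, libraries of one line had correlations of 0.222, 0.153, and 0.341 over 30474 contigs. Those of the same number at LD 16:8 and LD 22:2 had -0.0213, -0.122, and 0.0673. They were not taken as pairs, except that the replicate block also joined libraries of the same number at these light cycles.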

Additional observations from a re-analysis of the deposited data

Results flagged for a closer look

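Contig_8009 (*Yp2*) was flagged because its interaction of diapause state and light cycle was called in the likelihood ratio test, though not in every alternative. The 2 states were compared over different steps of the light series, so state and step cannot be told apart. The log2 fold change of contig_8009 was -1.52 for LD 16:8 against the CDL in diapausing females. It was 0.34 in nondiapausing females, for the CDL against LD 22:2. The interaction was -1.86 (FDR 0.0281, edgeR likelihood ratio test). Its 3 libraries at LD 16:8 were all below its 3 diapausing libraries at the CDL, whereas the nondiapausing groups overlapped. The FDR was above 0.05 in the quasi-likelihood test (0.0708) and in 8 of the 12 fits that left out a library. Among these 8 fits the values were 0.118, 0.0661, and 0.0866 without, at the CDL, diapausing line 175OJ8, nondiapausing line 175OJ8, and nondiapausing line 265OJ8, 0.118 and 0.101 without LD 16:8 replicates 1 and 2, and 0.151, 0.0665, and 0.0520 without LD 22:2 replicates 1, 2, and 3. With line as a term it was 0.00509. The part of isofemale line, which is unequal between the light cycles, was not tested beyond these fits.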

How the results depend on the processing

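Of 742 comparisons of a result with an alternative, 692 had the same direction and side of the threshold (for values with no test, a shift within the spread of replicates) and 7 changed sign. All 7 were values near 0 that were not called, with 1 library left out. For the CDL against LD 22:2 in nondiapausing females, contig_633 ran from -0.0401 to 0.37 and contig_4949 from -0.0755 to 0.16 as libraries were left out, and for line 265OJ8 contig_4785 ran from -0.0652 to 0.18. The ratio of contig_8009 to contig_633 by day length in diapausing females ran from -0.29 to 0.22. The ratios added later are not in these counts. That of contig_633 to contig_4949 by state ran from -0.0848 to 0.0772 and changed sign in 6 of 13 alternatives. That of contig_4785 to contig_4949 by day length in nondiapausing females ran from -0.0131 to 0.19 and changed sign in 1 of 7. For each contig the state differences kept both in every alternative, except that line 175OJ8 alone, which has no test, gave -1.86 for contig_8009 at the CDL. The replicate block changed no call, the value of contig_8009 at the CDL being -2.37 with it. The day length comparisons and the interaction could not be fitted with the block, because the names of replicates at the CDL do not recur at LD 16:8 or LD 22:2.

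For LD 16:8 against the CDL in diapausing females, contig_8009 lost its call in the quasi-likelihood test (-1.52) and had -2.03 in line 175OJ8 alone, with -1.75 to -1.16 as libraries were left out. Contig_633 lost its call in the quasi-likelihood test (-1.51) and with the compared groups only (-1.47), and had -2.07 in line 175OJ8 alone and -1.76 to -1.11 as libraries were left out. Contig_4949 became DE with the line term (-1.32 in either edgeR test) and in DESeq2 (-0.99), with -1.43 in line 175OJ8 alone.

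For the interaction, contig_8009 lost its call in the quasi-likelihood test (-1.86), with -2.46 in line 175OJ8 alone and -2.09 to -1.50 as libraries were left out. Contig_633 became DE with library size alone (-1.74), the line term (-2.63 in either edgeR test), DESeq2 (-1.70), and without the diapausing line 3OL8 library (-1.93, FDR 0.00997), with -2.62 in line 175OJ8 alone and -1.93 to -1.28 as libraries were left out. Contig_4949 became DE with the line term (-1.73 in either edgeR test), with -1.72 in line 175OJ8 alone. By line, contig_633 became DE in DESeq2 (-0.63 for line 265OJ8 and -0.99 for line 3OL8). The state difference in the ratio of contig_8009 to contig_633 ran from -0.55 to -0.35 as libraries were left out, and its *P* was above 0.05 in 6 of these 12 exact permutation tests.

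With library size alone the median log2 fold change of all contigs by state at the CDL moved to -0.27, against 0.08 with TMM, and the calls to 4877 higher and 10681 lower, against 8037 and 7414. The yolk protein contigs stayed lower (-2.65, -1.92, -2.14, and -2.34 for contig_8009, contig_4785, contig_633, and contig_4949). Calls over all contigs by day length in diapausing females numbered 126, against 2 with the quasi-likelihood test, 261 with the line term, and 54 and 199 without LD 16:8 replicates 2 and 3. In nondiapausing females they numbered 70, against 1 with the quasi-likelihood test, 146 with the compared groups only, 30 in DESeq2, and 8 with the line term in the quasi-likelihood test. For the interaction they numbered 334, against 58 with the quasi-likelihood test, and by line 579, against 329. The cause of these moves was not tested.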
